A study of Mus musculus with 12 samples.

Results

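The 7 genes described here carry, make or break down glutamate, glutamine and ammonia in the liver: the carriers Slc1a2 and Slc1a4, the ammonia channel Rhbg, and the enzymes Glul, Oat, Gls2 and Glud1. They were chosen by name, as the entries of the deposited table whose Ensembl identifier maps to those symbols, 7 of 35709 entries, with their levels in these samples already known. Their values are therefore given as a description, and no test is drawn from them. All 7 passed the filter on low values, a normalized count of at least 1 in at least 3 samples, which kept 20244 genes.

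RNA-seq had been done on isolated hepatocytes of C57BL/6J males, 8 to 10 weeks old. They had received 1 intraperitoneal dose of the liver toxicant carbon tetrachloride (CCl4), 0.4 mg per g of weight, dissolved in olive oil, or the oil alone, and RNA was taken at 48 h. Alb-R3 mice are labelled as lacking the receptor gene Fgfr3 in hepatocytes, and Alb-Cre mice are their controls, so that Cre recombinase driven by the albumin promoter is present in both genotypes. The 12 samples form 4 groups of 3: Alb-R3 CCl4, Alb-Cre CCl4, Alb-R3 oil and Alb-Cre oil. Whether the samples are separate animals is not stated in the labels, and p-values reflect only how far these samples spread, which may be technical.

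Periportal hepatocytes, the first to meet portal blood, break down glutamine and pass its ammonia to the urea cycle. A thin rim of pericentral hepatocytes around the central vein takes up the ammonia and glutamate that escape, and joins them into glutamine. In mouse liver Glul, Slc1a2, Rhbg and Oat are known as pericentral genes, under the control of Wnt and beta-catenin signalling, and Gls2 as a periportal one. CCl4 is made toxic by pericentral cytochrome P450 and kills hepatocytes from the central vein outward.

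Each library held between 28000000 and 39600000 estimated reads. The 9 hepatocyte markers measured were above 0 in every library and made up 7.05% to 14.1% of the normalized counts. The library labelled Alb-R3 CCl4 replicate 1 stood apart: the mitochondrial genome gave 32.3% of its normalized counts, where it gave 6.22% to 12.8% in the other 11, and the 10 Kupffer cell markers gave 0.0350%, where they gave 0.00229% to 0.0110%. Fgfr3 went against 1 label: it had 477.7, 372.1 and 382.3 normalized counts in the Alb-R3 CCl4 libraries, 950.9, 705.7 and 753.0 in Alb-Cre CCl4, 523.1, 650.5 and 1109 in Alb-R3 oil, and 734.9, 887.6 and 988.1 in Alb-Cre oil, so that its level was highest of the 12 in replicate 3 of the libraries labelled Alb-R3 oil. Genotype is used below as labelled, and values that turn on either library are given also without it.

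With sequence further from an annotated start left unsearched, the RefSeq promoter windows of the 4 genes that changed most are shown first. Each runs 5′ to 3′ on the strand of the gene, from 250 bases before to 50 bases after an annotated start, on GRCm38.p6: Slc1a2 at chr2:102706188-102706487 on the plus strand, Slc1a4 at chr11:20332664-20332963 on the minus strand, Glul at chr1:153899679-153899978 on the plus strand and Oat at chr7:132576349-132576648 on the minus strand. Capitals mark matches to 2 motifs searched on both strands, the TCF/LEF core of Wnt signalling (CTTTGA or CTTTGT) and the C/EBP-ATF response element of amino acid stress (CARE, TGATGNAA).
Slc1a2: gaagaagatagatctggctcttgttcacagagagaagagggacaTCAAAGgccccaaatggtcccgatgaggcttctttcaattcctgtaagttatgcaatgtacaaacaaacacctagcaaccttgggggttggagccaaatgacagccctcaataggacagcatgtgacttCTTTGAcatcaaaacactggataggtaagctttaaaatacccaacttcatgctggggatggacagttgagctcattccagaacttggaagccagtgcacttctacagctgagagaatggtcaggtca
Slc1a4: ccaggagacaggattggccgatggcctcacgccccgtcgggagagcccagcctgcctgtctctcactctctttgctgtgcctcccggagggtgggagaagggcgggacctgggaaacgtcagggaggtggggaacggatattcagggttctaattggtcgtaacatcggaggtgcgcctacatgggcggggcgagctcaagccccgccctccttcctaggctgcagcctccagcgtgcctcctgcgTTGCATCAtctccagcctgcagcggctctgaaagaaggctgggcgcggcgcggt
Glul: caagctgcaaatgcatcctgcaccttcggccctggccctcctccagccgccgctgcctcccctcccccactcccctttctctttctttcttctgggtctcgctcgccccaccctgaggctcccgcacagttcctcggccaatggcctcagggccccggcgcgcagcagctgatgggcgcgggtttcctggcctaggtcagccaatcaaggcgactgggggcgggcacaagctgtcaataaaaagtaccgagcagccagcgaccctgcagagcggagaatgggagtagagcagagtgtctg
Oat: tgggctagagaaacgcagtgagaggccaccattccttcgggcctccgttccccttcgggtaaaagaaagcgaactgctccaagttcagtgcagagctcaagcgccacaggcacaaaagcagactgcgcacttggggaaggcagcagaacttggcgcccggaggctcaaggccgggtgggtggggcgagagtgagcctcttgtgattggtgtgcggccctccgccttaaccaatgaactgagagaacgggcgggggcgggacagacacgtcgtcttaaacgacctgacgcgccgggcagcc
The Slc1a2 window held 2 TCF/LEF matches, whose first printed bases lie at -206 and -77 with the start as +1, and 6.68% of 32851 RefSeq promoter windows held at least 2. At least 1 TCF/LEF match was found in 31.2% of them. The Slc1a4 window held 1 CARE match, at -4, against 3.97% of all windows with at least 1. The Glul and Oat windows held neither, nor did that of Glud1, at chr14:34310477-34310776. Of the 7 genes, 5 had a window in the table. A match is a run of letters and was not tested as a binding site, and Slc1a2 has further annotated starts across its span on chromosome 2, 102658659 to 102790784 (GENCODE M21 on GRCm38).

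After CCl4, the pericentral glutamate carrier transcript Slc1a2 fell by 139 and 214 times, Oat fell by 10.1 and 10.6 times, Glul fell by 3.90 and 3.95 times, and the neutral amino acid carrier Slc1a4 rose by 3.16 and 4.01 times, in Alb-R3 and in Alb-Cre in that order. Rhbg, Gls2 and Glud1 did not pass the threshold in either. With limma on log2(normalized count + 1) and an adjusted p under 0.05 over all genes tested, 4 of the 7 passed in Alb-R3, 1 higher and 3 lower, where 17.8% of the 20244 genes passed, 10.9% higher and 6.92% lower. In Alb-Cre the same 4 passed in the same directions, where 4.45% of the genes did, 3.46% higher and 0.988% lower. The ranges of the CCl4 and oil libraries were apart for 33.6% of all genes in Alb-R3 and for 23.6% in Alb-Cre, and for these 4 genes in both. Since the genes were chosen for these values, nothing is read from these counts.

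Slc1a2 (ENSMUSG00000005089) encodes the sodium-driven high-affinity glutamate carrier EAAT2, known best from astrocytes and, in liver, from the hepatocytes next to the central vein. It had 10.3, 2.21 and 5.63 normalized counts in the Alb-R3 CCl4 libraries, against 732.6, 1033 and 842.6 in Alb-R3 oil. In Alb-Cre it had 1.99, 2.29 and 3.34 after CCl4, against 755.6, 841.0 and 658.1 after oil. Every CCl4 library lay far below every oil library, and the groups did not overlap. On this scale the log2 fold change was -7.11 ± 0.39 (SE, n = 3 against 3) in Alb-R3 and -7.74 ± 0.39 in Alb-Cre. In both it was the lowest log2 fold change of the 20244 genes tested.

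The Slc1a2 transcript left after CCl4 was close to the limit of counting. The 3 Alb-R3 CCl4 libraries held 10, 3 and 7 estimated reads, against 670, 912 and 712 in Alb-R3 oil. The Alb-Cre CCl4 libraries held 2, 2 and 4, against 720, 865 and 552 in Alb-Cre oil. Taken as sums of reads over depth, with no pseudocount, Slc1a2 was lower after CCl4 by 156-fold in Alb-R3 (95% exact interval 100 to 255) and by 294-fold in Alb-Cre (149 to 682). These intervals cover counting error only. Replicate 1, the library that stands apart, held the most Slc1a2 of the Alb-R3 CCl4 group, and without it the log2 fold change in Alb-R3 was -7.55. In bulk samples such as these, fewer cells of a type and less RNA per cell cannot be told apart, which holds for each decrease given here.

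Slc1a4 (ENSMUSG00000020142, chromosome 11, 20302180 to 20332713) encodes ASCT1, an exchanger of alanine, serine, cysteine and threonine from the same family as Slc1a2. It had 461.2, 421.9 and 589.1 normalized counts in Alb-R3 CCl4, against 117.1, 163.2 and 188.0 in Alb-R3 oil. The Alb-Cre libraries had 437.5, 590.2 and 243.5 after CCl4, against 92.4, 116.7 and 88.3 after oil. All 6 CCl4 libraries lay above all 6 oil libraries, with Alb-Cre CCl4 replicate 3 the lowest of the CCl4 ones. Log2 fold changes were 1.66 ± 0.30 in Alb-R3 and 2.0 ± 0.30 in Alb-Cre (SE, n = 3 against 3). The 2 carriers of this family thus moved in opposite directions, and the ratio of Slc1a4 to Slc1a2 in FPKM, a level per transcript length, was 19.7 to 84.4 in Alb-R3 CCl4 and 32.2 to 114 in Alb-Cre CCl4, against 0.0697 to 0.0984 in Alb-R3 oil and 0.0539 to 0.0612 in Alb-Cre oil.

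Glul (ENSMUSG00000026473, chromosome 1, 153899944 to 153909723) encodes glutamine synthetase, the enzyme that joins ammonia to glutamate and the classical marker of the last rim of cells before the central vein. It had 1381, 2074 and 1448 normalized counts in Alb-R3 CCl4, against 5227, 7773 and 6040 in Alb-R3 oil. Alb-Cre libraries had 1365, 886.4 and 2091 after CCl4, against 5796, 5755 and 4678 after oil. No CCl4 library reached any oil library, and Alb-Cre CCl4 replicate 2 was the lowest of the 12. The decrease was -1.96 ± 0.27 on the log2 scale in Alb-R3 and -1.98 ± 0.27 in Alb-Cre. Glul after CCl4 was thus at 0.257 times its level in oil in Alb-R3 and at 0.253 times in Alb-Cre, where Slc1a2 was at 0.00722 and 0.00467 times.

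Oat (ENSMUSG00000030934, chromosome 7, 132557478 to 132576398) encodes ornithine aminotransferase, which turns ornithine into glutamate semialdehyde and so feeds glutamate to glutamine synthetase in the same cells. It had 465.3, 342.1 and 1007 normalized counts in Alb-R3 CCl4, against 4785, 6263 and 5483 in Alb-R3 oil. In the Alb-Cre libraries it had 557.1, 816.7 and 961.7 after CCl4, against 9447, 11620 and 4769 after oil. The groups did not overlap in either genotype, although Alb-R3 CCl4 replicate 3 and Alb-Cre oil replicate 3 each stood well away from the other 2 libraries of their group. Its log2 fold change was -3.33 ± 0.38 in Alb-R3 and -3.41 ± 0.38 in Alb-Cre. Oat lies within the annotated span of Fgfr2 on the same strand, so reads assigned to Oat could in part come from transcripts of that longer gene.

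Rhbg (ENSMUSG00000104445, chromosome 3, 88242874 to 88254709) encodes the Rh family B glycoprotein, a membrane channel for ammonia on pericentral hepatocytes. It had 64.0, 85.0 and 49.4 normalized counts in Alb-R3 CCl4, against 73.3, 91.8 and 105.1 in Alb-R3 oil. In Alb-Cre Rhbg had 77.8, 37.7 and 38.7 after CCl4, against 33.9, 44.3 and 64.4 after oil. The CCl4 and oil ranges overlapped in both genotypes. The log2 fold change was -0.46 ± 0.36 in Alb-R3, with a 95% interval of -1.24 to 0.32. It was 0.08 ± 0.36 in Alb-Cre, with an interval of -0.70 to 0.85, a value that turned to -0.29 with quantile normalization. Across other scalings, filters and models the Alb-R3 value ran from -0.975 to -0.0498. Summed with Gm38392, an overlapping gene described below, the log2 fold change was -0.372 ± 0.309 in Alb-R3 and -0.243 ± 0.309 in Alb-Cre. These intervals leave out the spread of Glul and Oat, against which Rhbg was not tested.

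Gls2 (ENSMUSG00000044005, chromosome 10, 128194457 to 128210004) encodes the liver form of glutaminase, which frees ammonia from glutamine in periportal mitochondria. It had 2876, 6868 and 7423 normalized counts in Alb-R3 CCl4, against 9387, 8541 and 8297 in Alb-R3 oil. In Alb-Cre Gls2 had 9118, 6332 and 5610 after CCl4, against 15020, 14850 and 8059 after oil. The ranges were apart in Alb-R3 and overlapped in Alb-Cre, and the lowest of the 12 values was that of Alb-R3 CCl4 replicate 1. Its log2 fold change was -0.73 ± 0.34 in Alb-R3 and -0.82 ± 0.34 in Alb-Cre, neither past the threshold, and that in Alb-R3 was -0.29 without replicate 1.

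Glud1 (ENSMUSG00000021794, chromosome 14, 34310727 to 34345265) encodes mitochondrial glutamate dehydrogenase, which links glutamate and ammonia to the citric acid cycle and works in hepatocytes of the whole lobule. It had 25930, 25970 and 27940 normalized counts in Alb-R3 CCl4, against 29700, 32750 and 23190 in Alb-R3 oil. In Alb-Cre Glud1 had 29300, 45710 and 29510 after CCl4, against 25420, 35220 and 17360 after oil. The ranges overlapped in both genotypes, and all 12 values lay within 1.40 log2 units. The log2 fold change was -0.09 ± 0.29 in Alb-R3 (95% interval -0.71 to 0.54) and 0.45 ± 0.29 in Alb-Cre (-0.18 to 1.07), and that in Alb-R3 turned to 0.50 with quantile normalization, to 0.33 when libraries were scaled without mitochondrially encoded genes and to 0.18 in FPKM.

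**Figure D1:**
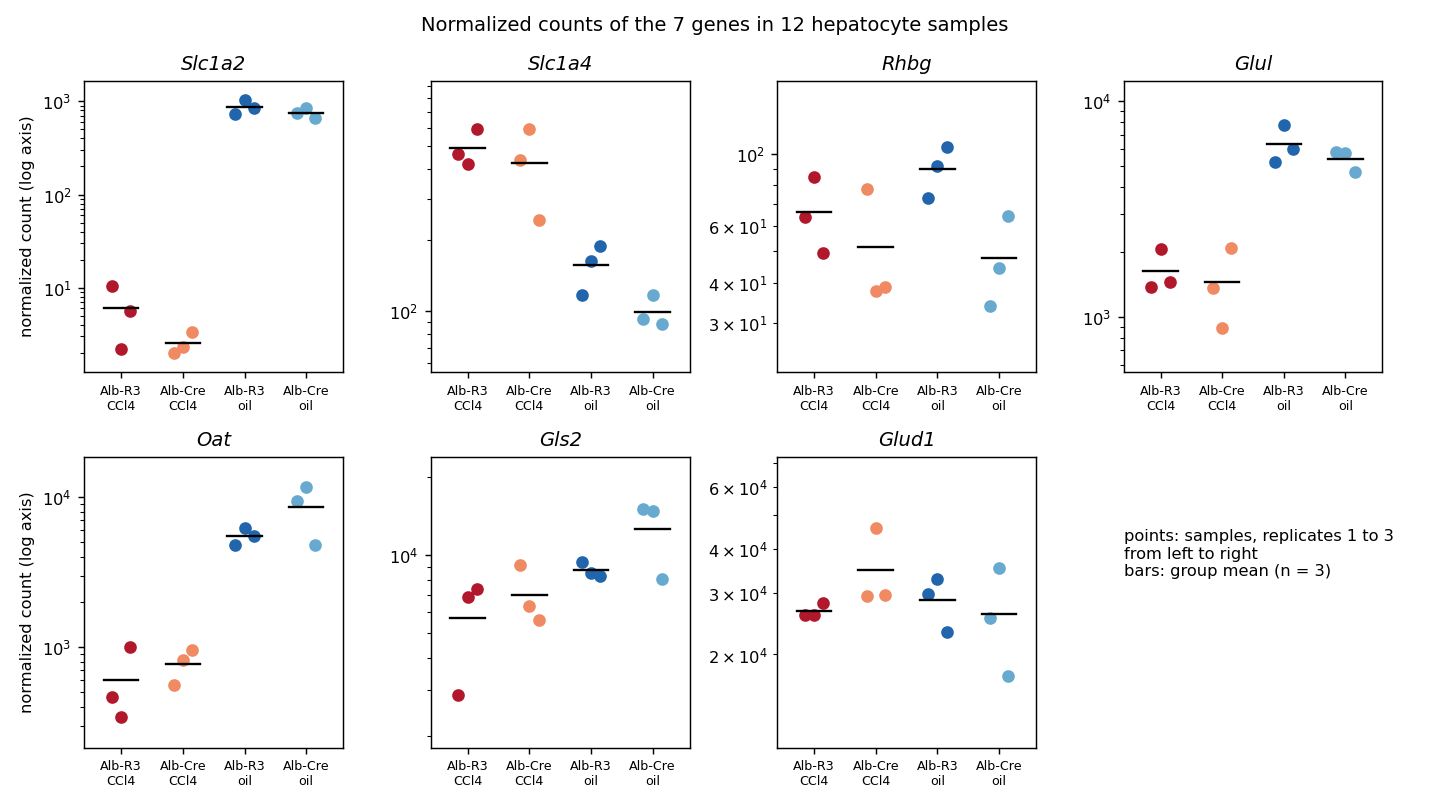
Normalized count (log axis) of each of the 7 genes in the 12 libraries, with groups on the horizontal axis, 1 point per library and a bar at each group mean (n = 3). The CCl4 points of Slc1a2, Oat and Glul lie below all oil points and those of Slc1a4 above them, while Rhbg and Glud1 overlap.

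The 2 genotypes, as labelled, were then compared within each treatment, with Fgfr3 at the levels given above. No gene of the 7 passed the threshold after CCl4, where 0.173% of all genes did with limma, or after oil, where 0.207% did. Rhbg after oil was the only 1 of the 7 with an unadjusted limma p under 0.05 in either comparison. The genotype differences were smaller than the CCl4 responses of Slc1a2, Oat, Glul and Slc1a4, and none of the 7 was past the spread between libraries by this test.

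Rhbg had 73.3, 91.8 and 105.1 normalized counts in Alb-R3 oil and 33.9, 44.3 and 64.4 in Alb-Cre oil. All 3 Alb-R3 libraries lay above all 3 Alb-Cre libraries, a separation that 11.3% of all genes showed after oil. The log2 difference was 0.94 ± 0.36 (limma adjusted p = 0.577). Rhbg shares its strand and part of its span with the annotated gene Gm38392, which had 0, 0 and 0.15 normalized counts in Alb-R3 oil and 25.4, 10.5 and 0 in Alb-Cre oil. How reads were split between the 2 entries differed between libraries, and their sum was 90.1 ± 16.0 in Alb-R3 oil and 59.5 ± 4.82 in Alb-Cre oil (SD, n = 3 each), a log2 difference of 0.58 ± 0.31. With replicate 3 of Alb-R3 oil left out, the difference of Rhbg alone was 0.82.

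Slc1a4 likewise had 117.1, 163.2 and 188.0 normalized counts in Alb-R3 oil and 92.4, 116.7 and 88.3 in Alb-Cre oil, with no overlap and a log2 difference of 0.63 ± 0.30. Glud1 had no overlap after CCl4, where 12.0% of all genes had none: its 3 Alb-R3 values, 25930 to 27940, lay below its 3 Alb-Cre values, 29300 to 45710, with a log2 difference of -0.36 ± 0.29. Slc1a2 had a difference of 0.83 ± 0.39 after CCl4, at the 2 to 10 reads given above, and of 0.40 without Alb-R3 CCl4 replicate 1. The other values after CCl4 ran between -0.48 for Oat and 0.41 for Rhbg, and Gls2, at -0.38, was at 0.06 without that replicate. After oil the remaining differences were 0.20 for Slc1a2, 0.22 for Glul, 0.18 for Glud1, -0.48 for Gls2 and -0.56 for Oat, each with overlapping ranges.

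The interaction, which is the CCl4 response in Alb-R3 minus that in Alb-Cre, was 0.63 ± 0.56 for Slc1a2, 0.02 ± 0.39 for Glul, 0.08 ± 0.54 for Oat, 0.10 ± 0.49 for Gls2, -0.35 ± 0.42 for Slc1a4, -0.54 ± 0.51 for Rhbg and -0.54 ± 0.41 for Glud1 (log2, SE). None of the 7 had an unadjusted limma p under 0.05. Over all genes 0.00% passed the adjusted threshold, 1516 of the 20244 had an unadjusted p under 0.05, and limma with array weights called 46. The 95% interval of this difference was -0.81 to 0.85 for Glul, -1.08 to 1.23 for Oat, -1.25 to 0.56 for Slc1a4 and -0.57 to 1.83 for Slc1a2.

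**Figure D2:**
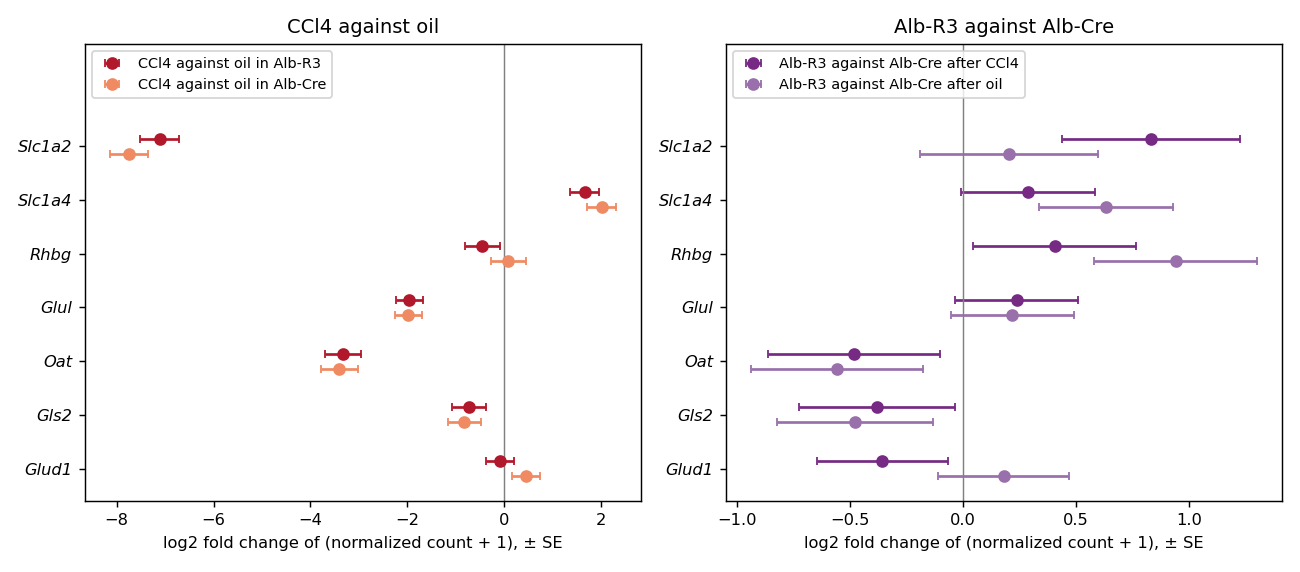
Log2 fold changes of the 7 genes, with limma's standard error as bars: on the left CCl4 against oil by genotype, on the right Alb-R3 against Alb-Cre by treatment. The points of the 2 genotypes lie close together on the left, from -7.74 to 2.0, while all values on the right lie between -0.56 and 0.94.

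Per transcript length, Glud1 was the highest of the 7 in all 4 groups and Gls2 came next. Glud1 averaged 735 ± 124 FPKM in Alb-R3 CCl4, 957 ± 198 in Alb-Cre CCl4, 653 ± 139 in Alb-R3 oil and 616 ± 219 in Alb-Cre oil (SD, n = 3 each). In both CCl4 groups the order of mean FPKM was Glud1, Gls2, Glul, Oat, Slc1a4, Rhbg, Slc1a2, with no neighbours overlapping in Alb-R3 and Glul and Oat overlapping in Alb-Cre. In Alb-R3 oil it was Glud1, Gls2, Glul, Oat, Slc1a2, Rhbg, Slc1a4, and there Gls2 and Glul, Glul and Oat, and Rhbg and Slc1a4 overlapped. In Alb-Cre oil Oat stood above Glul and Slc1a4 above Rhbg, again within overlapping ranges. Slc1a2 thus had the fifth place in both oil groups and the last in both CCl4 groups, at 0.111 ± 0.0628 FPKM in Alb-R3 CCl4 and 0.0495 ± 0.0155 in Alb-Cre CCl4, against 13.8 ± 2.60 in Alb-R3 oil and 12.4 ± 1.65 in Alb-Cre oil.

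The balance between the glutamine-making and the glutamine-splitting transcript was read as Glul over Gls2 in FPKM. It was 0.50, 0.314 and 0.203 in Alb-R3 CCl4, 0.156, 0.146 and 0.388 in Alb-Cre CCl4, 0.580, 0.947 and 0.758 in Alb-R3 oil, and 0.402, 0.403 and 0.604 in Alb-Cre oil. The CCl4 values lay below the oil values of the same genotype in every library, by a narrow margin in both: the highest CCl4 value was 0.50 against the lowest oil value of 0.580 in Alb-R3, and 0.388 against 0.402 in Alb-Cre. The highest CCl4 ratio was that of Alb-R3 replicate 1, the library with the low Gls2 value. The share of Glud1 in the summed FPKM of the 7 genes was 74.3% to 84.7% in Alb-R3 CCl4 and 73.4% to 85.4% in Alb-Cre CCl4, against 54.1% to 60.8% in Alb-R3 oil and 46.3% to 52.9% in Alb-Cre oil.

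**Figure D3:**
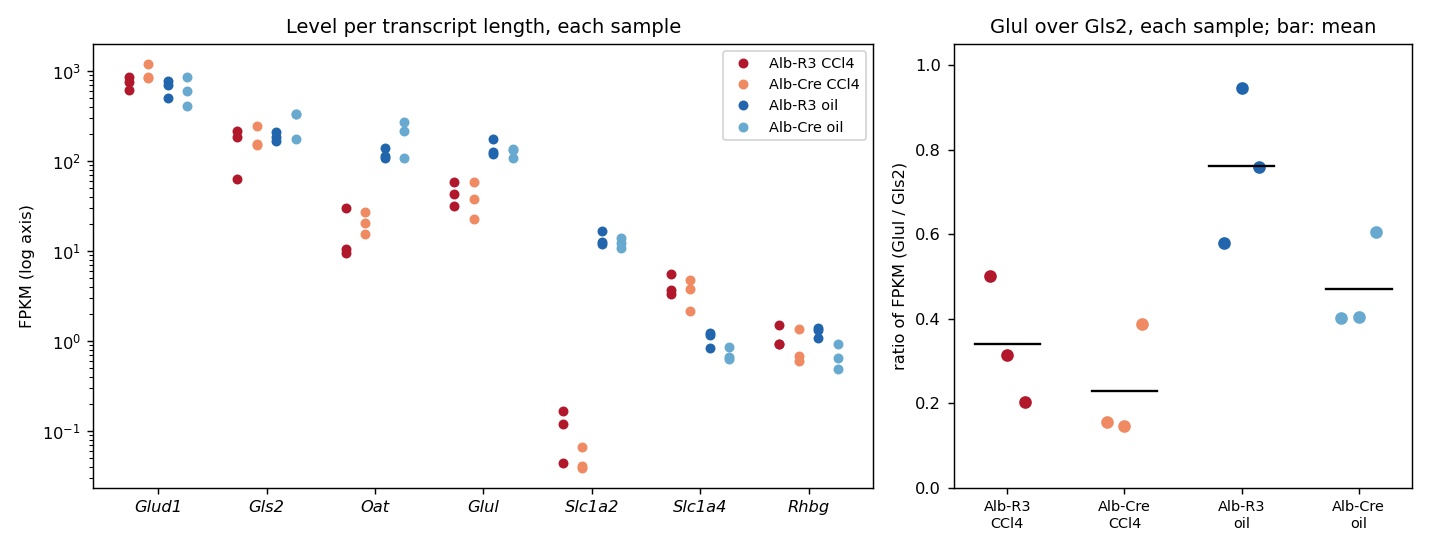
Left, FPKM (log axis) of the 7 genes in each of the 12 libraries, coloured by group; right, the ratio of Glul to Gls2 in FPKM per library with a bar at the group mean (n = 3). Slc1a2 moves below all other genes after CCl4, and the ratio is between 0.146 and 0.50 after CCl4 against 0.402 to 0.947 after oil.

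The genes nearest to each of the 7 over the 12 libraries were found among 14721 others by the root mean square (RMS) difference of their log2 values. Each gene was centred on its own mean but not scaled, so the RMS counts the size of a change as well as its direction. For Slc1a2 the nearest was Mup17, a major urinary protein gene with near-identical copies whose read assignment is uncertain. The RMS was 1.48 log2 units over a Slc1a2 range of 8.43. Slc1a2 had the lowest log2 fold change of all genes tested, so a large RMS from other genes follows in part from the measure. For Oat the nearest were Gm10804 at 0.523 and Lhpp at 0.548, and Lhpp lies close to Oat on chromosome 7 (132610638 to 132706420). For Glul they were Pparg at 0.363 and Flcn at 0.394, and for Slc1a4 Mtbp at 0.321 and Skp2 at 0.332. Among the 7 themselves, the closest pair was Gls2 and Glud1, at an RMS of 0.669. Glud1 and Rhbg differed by 0.7, Gls2 and Glul by 0.825, Gls2 and Rhbg by 0.849, and Glud1 and Slc1a4 by 0.929. Glul differed from Oat by 0.958, more than from Gls2, although Glul and Oat both fell past the threshold after CCl4 and Gls2 did not. The larger fall of Oat adds to its RMS from Glul. Glul and Rhbg differed by 1.03, Oat and Slc1a2 by 2.15, and Slc1a2 and Slc1a4 by 4.67. Gls2, Rhbg and Glud1, which varied least, were nearest to Irf2 (0.186), Fam50b (0.204) and Tbccd1 (0.146).

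Beyond the 7, a list of 48 other genes of the pathway was followed, of which 46 passed the filter: 14 carriers of glutamate, glutamine and aspartate, 23 enzymes that make or use glutamate and glutamine, and 9 of 11 genes of ammonia transport and the urea cycle. In Alb-R3, 10 of the 46 were higher after CCl4 and 8 lower (39.1%, beside 17.8% of all genes), with a median log2 fold change of -0.21 beside 0.00159 over all genes. The split depended on the scaling: 11 were higher and 2 lower in FPKM, 13 and 5 when libraries were scaled without mitochondrially encoded genes, and 7 and 6 with quantile normalization, and the median was then 0.06, 0.20 and 0.20. In the same order, all genes had medians of 0.165, 0.371 and -0.0589. Calls over all genes were then 3118 higher and 544 lower, 4644 and 500, and 1723 and 1640. Without Alb-R3 CCl4 replicate 1 there were 7 higher and 10 lower, with a median of 0.11. All genes then had 1950 higher and 1231 lower, with a median of -0.00357. In Alb-Cre, 3 were higher and 1 lower (8.70%, beside 4.45%), with a median of -0.01 beside 0.02. The Alb-Cre count was 10 when Alb-R3 CCl4 replicate 1 was left out of the shared estimate of spread, and between 1 and 5 when any other library was. In the interaction 0 of the 46 passed with limma and 3 had an unadjusted p under 0.05, so the 2 counts do not show that the genotypes differ.

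Of the carriers, 2 were higher and 3 lower past the threshold in Alb-R3, and none of 14 passed in Alb-Cre, where 5 had an unadjusted limma p under 0.05. Slc38a3, which exchanges glutamine across the hepatocyte membrane, had 20200, 25170 and 34890 normalized counts in Alb-R3 CCl4, against 58450, 63980 and 70770 in Alb-R3 oil, with no overlap. Its log2 fold change was -1.30 ± 0.29 (limma adjusted p = 0.00741, but 0.110 with quantile normalization). Slc1a5, the glutamine carrier ASCT2 and the nearest relative of Slc1a4, was higher, with a log2 fold change of 2.22 ± 0.69 (adjusted p = 0.0418, n = 3 against 3, limma). That call was lost without Alb-R3 CCl4 replicate 1, where the value was 1.54 (limma adjusted p = 0.133), without Alb-R3 oil replicate 2, where it was 1.62 (0.165), and under 9 other alternatives, the replicate block among them (0.0565). Slc1a1 and Slc1a3, the other acidic amino acid carriers of the family, did not pass.

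Of the 23 enzymes, 8 rose and 3 fell in Alb-R3. Those that rose most make proline, serine and asparagine with glutamate or glutamine as donor. Of these, only Psat1 also passed in Alb-Cre, where 11 of the 23 enzymes had an unadjusted limma p under 0.05. In the interaction 0 of the 23 passed, and 3 had an unadjusted limma p under 0.05. Asns, which makes asparagine, rose from an Alb-R3 oil level below that of Alb-Cre oil, with values given below. Aldh18a1, which turns glutamate into the semialdehyde that Oat also makes, had 276.5, 173.6 and 117.0 normalized counts in Alb-R3 CCl4, against 1.09, 2.27 and 11.8 in Alb-R3 oil, a log2 fold change of 5.33 ± 0.67, or 6.1 with replicate 3 of Alb-R3 oil left out. Psat1, an aminotransferase of serine synthesis that uses glutamate, had 361.1, 328.9 and 277.3 normalized counts against 24.1, 26.1 and 16.6, a log2 fold change of 3.82 ± 0.29, and in Alb-Cre 222.6, 241.3 and 420.6 after CCl4 against 33.6, 24.3 and 31.0 after oil, 3.22 ± 0.29. Every CCl4 library exceeded every oil library for both genes.

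Prodh, the first enzyme of proline breakdown toward glutamate, had a log2 fold change of -1.75 ± 0.33 in Alb-R3. In Alb-Cre, Gfpt1, Cad and Psat1 were the enzymes past the threshold, and only Psat1 kept its call when each library in turn was left out.

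Of the ammonia and urea cycle genes, 2 of 9 fell in Alb-R3 and 1 of 9 in Alb-Cre. Aqp8, an aquaporin that also passes ammonia, had 1895, 4982 and 4068 normalized counts in Alb-R3 CCl4, against 12760, 9242 and 8338 in Alb-R3 oil, and 5107, 2238 and 2951 in Alb-Cre CCl4, against 10440, 8129 and 9615 in Alb-Cre oil. The groups did not overlap, and the log2 fold change was -1.56 ± 0.35 in Alb-R3 and -1.53 ± 0.35 in Alb-Cre; the call in Alb-Cre was lost without any of 4 of its 6 libraries (limma adjusted p up to 0.121). Asl, argininosuccinate lyase, had a log2 fold change of -1.01 ± 0.23 in Alb-R3. Its call, like that of Aqp8 in Alb-R3, was lost in FPKM (limma adjusted p of 0.0733 for Asl and 0.0566 for Aqp8). Cps1, which starts the urea cycle, did not pass in either genotype. Between the genotypes, 1 of the 46 passed after oil, asparagine synthetase (Asns), with 18.6, 45.3 and 20.1 normalized counts in Alb-R3 and 417.8, 236.2 and 192.1 in Alb-Cre (-3.32 ± 0.42), and 0 after CCl4, where 5 had an unadjusted limma p under 0.05.

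**Figure D4:**
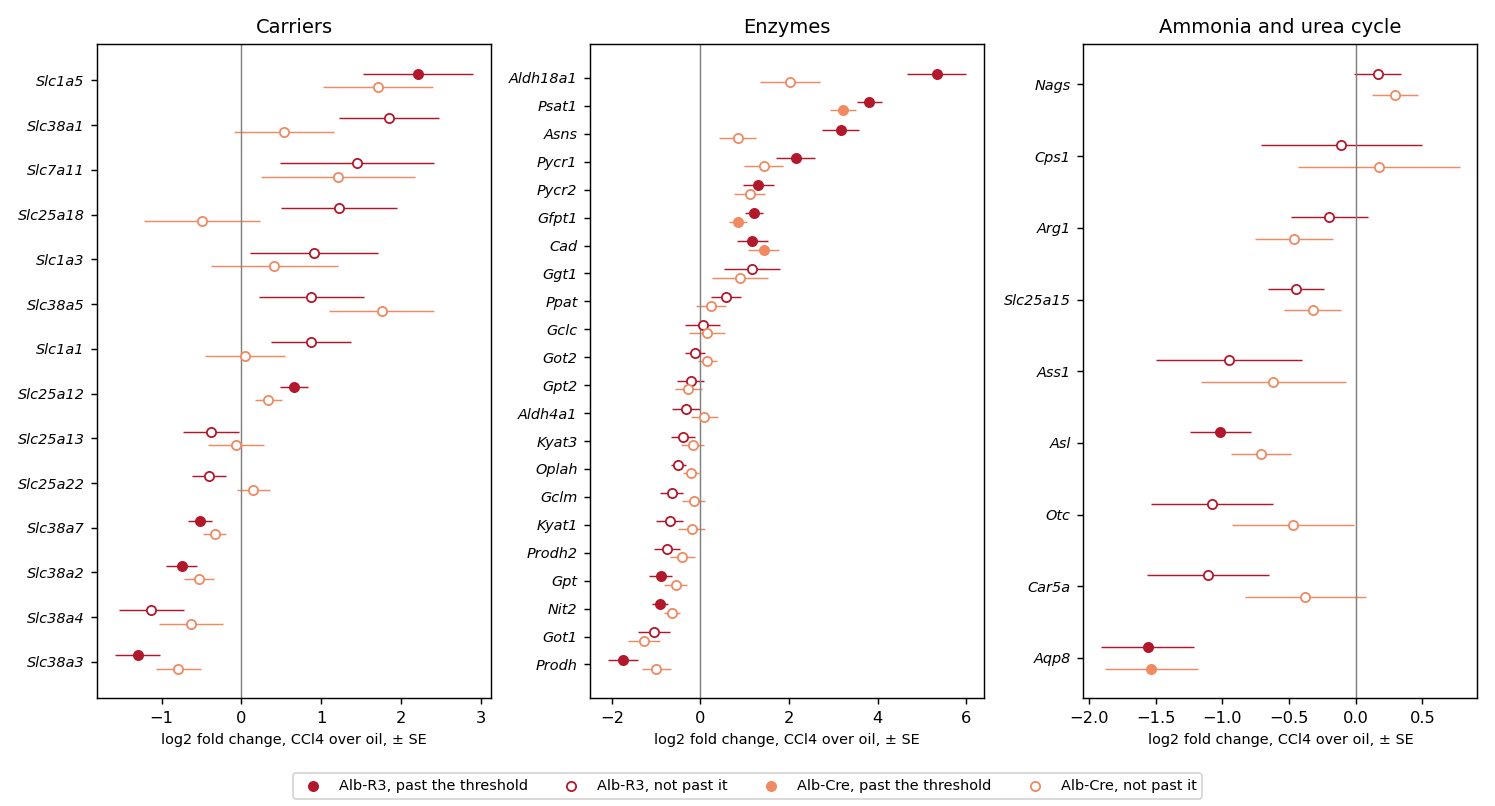
Log2 fold change of CCl4 over oil, ± limma's SE, for 45 of the pathway genes beyond the 7, in Alb-R3 (red) and Alb-Cre (orange), with filled points past the threshold. Filled red points are 9 to the right of 0 and 8 to the left, filled orange ones 3 and 1.

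Markers of the zones and of other cells were measured beside these genes. Over all genes tested, 10.9% passed higher and 6.92% lower after CCl4 in Alb-R3, and 3.46% and 0.988% in Alb-Cre. Of 15 pericentral genes, 8 fell in Alb-R3, where Cyp2e1 had the lowest log2 fold change, -4.43 ± 0.77, or -3.18 without Alb-R3 CCl4 replicate 1. The 8 were 7 without that library, 5, 4 and 5 without replicates 1, 2 and 3 of Alb-R3 oil, 4 when scaled without mitochondrially encoded genes, 5 with quantile normalization and 2 in FPKM. The lower calls over all genes moved as well, from 1400 in the main fit. In the same order they were 1231, then 726, 797 and 910, then 500, 1640 and 544. None of the 15 passed in Alb-Cre with limma, where 6 had an unadjusted p under 0.05 and the median was -0.11. Of 15 periportal genes, 2 rose and 5 fell in Alb-R3 and 1 rose and 1 fell in Alb-Cre. Kupffer cell markers rose after CCl4 in Alb-R3 for 10 of 10 genes, endothelial ones for 8 of 10, stellate ones for 8 of 10, cholangiocyte ones for 3 of 7 and leukocyte ones for 2 of 8, while in Alb-Cre 3 of 10 stellate markers rose and none of the other 4 lists had a member past the threshold (1 Kupffer and 1 cholangiocyte marker had an unadjusted p under 0.05). Without Alb-R3 CCl4 replicate 1, 8 Kupffer, 9 endothelial and 10 stellate markers rose in Alb-R3, where 1950 of 19818 genes did. In the interaction no gene of these zone and cell lists passed with limma, so these counts do not show that the genotypes differ. An unadjusted limma p under 0.05 was found there for 10 of 10 Kupffer, 8 of 10 endothelial and 5 of 10 stellate markers. The same held for 1 of 7 cholangiocyte, 2 of 8 leukocyte, 2 of 15 pericentral and 0 of 15 periportal genes, beside 1516 of 20244 over all. After oil the median log2 difference of Alb-R3 from Alb-Cre was -1.04 for the Kupffer, -1.08 for the endothelial and -1.14 for the stellate markers, with none past the threshold and 5, 9 and 9 of 10 at an unadjusted p under 0.05. Summed levels stayed at or below 0.0350% of the normalized counts for each of these 5 lists in every library, and none of the Kupffer, endothelial or stellate markers was at 0. The part of these cells in the values above was not tested.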

How the data were processed

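The authors deposited, per the file headers, a normalized count and an FPKM value for each gene in each of 12 samples. Kallisto 0.44.0, edgeR and the build GRCm38.p6 are named, without their roles, in the submitters' processing notes. The deposited normalized count behaves as estimated reads times 1 factor per sample (a signal, not whole reads; 1 read was worth 0.7325 to 1.193), so limma (3.58.1, R 4.3.3) was used and not a count model. One fit with a coefficient per group and a mean-variance trend was made on log2(normalized count + 1), with 8 residual degrees of freedom. Folds on this scale understate changes of low genes. P-values were adjusted by Benjamini-Hochberg over the 20244 genes tested, in 5 comparisons, with a threshold of 0.05. The deposited FPKM served for levels between genes. The members and all lists were chosen with earlier results of these data known. Named were the 7 members, up to 2 list genes of largest fold in each direction, the nearest genes by RMS among those with a mean of at least 5, and, chosen after their values were seen, Slc1a1, Slc1a3, Cps1, Gfpt1, Cad and Gm38392. The counts of enzymes include 1 gene that is not reported here by name and is not plotted. Promoter windows were read from RefSeq (GRCm38.p6) and positions from GENCODE M21. Alternatives were other scalings, filters, pseudocounts, array weights, FPKM, the replicate number as a block and leaving out each library. All 12 pairs of replicates differed by more than counting noise (8.39 to 119 times it). The fit was tested on simulated data.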

Additional observations from a re-analysis of the deposited data

How the results depend on the processing

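The calls of Slc1a2, Slc1a4, Oat and Glul after CCl4 were kept in both genotypes under all 23 alternatives, with log2 fold changes in Alb-R3 of -7.55 to -6.08, 1.47 to 2.07, -3.78 to -2.92 and -2.15 to -1.55, and in Alb-Cre of -8.18 to -6.39, 1.72 to 2.36, -3.78 to -3.14 and -2.29 to -1.67. Of 798 recomputed values of the 7 genes, 14 moved by more than the spread between replicates and 784 by less. The 784 include many values that could not move. Other filters, the fit without the trend and the replicate block leave a fold change as it is. So does leaving out a library of a group not compared, so the share of 784 is no measure of stability. With array weights Gls2 also passed in Alb-Cre, at -1.07 (limma adjusted p = 0.00398). The 4 pathway genes past the threshold in Alb-Cre were 7 when libraries were scaled without mitochondrially encoded genes, 7 in FPKM, 1 without the mean-variance trend, 16 with array weights and 1 to 10 with 1 library left out, and the 1 after oil was 3 with array weights; the cause was not tested. Scaling without mitochondrial genes moved the median of all genes from 0.00159 to 0.371 in Alb-R3 and from 0.0171 to 0.199 in Alb-Cre. The calls over all genes were then 4644 higher and 500 lower in Alb-R3, against 2198 and 1400, and 1176 and 116 in Alb-Cre, against 700 and 200. In FPKM they were 3118 and 544 in Alb-R3, and 1096 and 88 in Alb-Cre. The deviations of samples with the same replicate number had correlations of -0.183 to 0.196, and of 0.0203 to 0.196 between genotypes after oil. Whether the number stands for a shared batch was not tested. With the replicate block the pathway count in Alb-Cre was 2, and the counts of the 7 genes were as without it. A fit to 6 samples alone could not be made for the interaction. At 2 to 10 reads after CCl4, depth limits the size of the Slc1a2 decrease but not its direction.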
